A study of Mus musculus with 18 samples.

Results

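The genes described here are 6 members of the Notch pathway: the ligands Dll1 and Dll3, the receptor Notch1, the receptor-modifying enzyme Lfng, and the target genes Hes1 and Hes7. They were chosen by name, for their role in the pathway, with earlier results of these data known. They are 6 of 22997 nuclear genes counted. Single cells were taken from wild-type C57BL/6 mouse embryos during gastrulation, when the epiblast forms mesoderm and endoderm through the primitive streak. At embryonic day (E) 6.75 the extraembryonic part of each embryo was removed, embryos were dissociated singly and cells were picked by hand into 6 libraries. At E7.5 embryos were cut below the chorion, which keeps the extraembryonic mesoderm, embryos of one litter or a pair of litters were pooled, and cells were sorted by flow cytometry into 12 libraries. No allele, drug or transgene differed between the groups, and stage, dissection, way of collecting cells and protocol changed together, so that their effects cannot be told apart. Nothing in the labels says which libraries came from separate embryos or litters, so p-values measure the spread between libraries, which may in part be technical.

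Notch receptors are activated by ligands on neighbouring cells: ligand binding leads to cleavage of the receptor, and its freed intracellular domain enters the nucleus, binds the DNA-binding protein RBPJ and switches on targets such as the HES genes. Dll1 activates Notch on adjacent cells, whereas Dll3 is a divergent ligand best known for its role inside the presomitic mesoderm cell. Lfng is a glycosyltransferase that changes how Notch receptors respond to their ligands. Hes1 and Hes7 are basic helix-loop-helix repressors, and Hes7 and Lfng are known as oscillating genes of the segmentation clock in presomitic mesoderm.

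The upstream sequences of the members were searched for the core of the RBPJ site, TGGGAA on one strand or TTCCCA on the other, since this is where the receptor's nuclear complex contacts DNA. RefSeq promoter windows on GRCm38.p6 were matched for 5 members, in 6 windows, each running from 250 bases before a gene's start. The core was found in the windows of Lfng and Hes7, which are printed for this reason, with the core in capitals.
Lfng, plus strand of chr5:140607091-140607319, the bases before the GENCODE start: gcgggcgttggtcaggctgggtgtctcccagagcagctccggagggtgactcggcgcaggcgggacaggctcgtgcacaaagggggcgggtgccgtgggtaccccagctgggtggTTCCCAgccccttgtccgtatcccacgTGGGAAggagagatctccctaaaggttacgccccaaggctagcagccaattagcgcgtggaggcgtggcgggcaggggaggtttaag
Hes7, plus strand of chr11:69120261-69120290: tcctcccctcacTTCCCAcatttggggcta
In Lfng the 2 matches begin 135 and 108 bases before the RefSeq start, one on each strand, and in Hes7 the single match begins 180 bases before it. For both genes the RefSeq start lies inside the GENCODE span given below, so that the distances to the GENCODE starts are shorter. No match was found in the windows of Dll1, Dll3 and Notch1, which says only that these letters are not there. The windows of Dll3 and Notch1 and the first window of Dll1 lie wholly inside the GENCODE spans given below, and so not upstream of them. The core is short and occurs in 21.6% of 32851 promoter windows of the same length, so a match is a description and not a site. The T-box half-site GGTGTGA, searched on both strands because T and Tbx6 are T-box factors, was in none of the 6 windows and in 3.33% of all windows.

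On GRCm38 with GENCODE M21, Dll1 spans chr17:15367354-15376872 (minus strand), Dll3 chr7:28293553-28302238 (minus), Notch1 chr2:26457903-26516663 (minus), Lfng chr5:140607320-140615545 (plus), Hes1 chr16:30064384-30067796 (plus) and Hes7 chr11:69120404-69124055 (plus). Dll1, Notch1 and Hes7 overlap genes annotated on the opposite strand, and whether the authors counted by strand is not given in the sources used here. Counts are of whole genes, so that exons and untranslated regions are not separated.

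Each library held 96 cells, and a cell was kept when it had at least 2000 nuclear transcripts. At E6.75, 543 cells were kept (85 to 96 per library), and library totals were 2933395 to 5493791 transcripts. At E7.5, 429 cells were kept in 11 libraries (15 to 71 per library), with totals of 518343 to 2627269, while replicate 5 had 3042 transcripts in all, no kept cell and no part in any test. The E6.75 libraries 2_13 and 2_14 stood apart: their cells had median depths of 54686 and 53967 transcripts against 22331 to 35382 in the other libraries of that stage, and they held 49 and 47 cells with T against 9 to 18. Stage differences without them are given where they are described. All libraries drew on one fixed set of cell barcodes, so that shared barcodes do not mark shared cells. Paraxial mesoderm markers summed to 6.13 to 10.9 CPM (transcripts scaled to the nuclear total of each library) at E6.75, with Msgn1 at 0, and to 83.7 to 259 CPM at E7.5, with all 6 markers counted. Epiblast markers fell between 5424 and 6668 CPM at E6.75 and between 1369 and 3876 CPM at E7.5, and visceral endoderm markers between 149 and 940 CPM and between 2.97 and 363 CPM. The label of whole embryo thus covers mixtures of cells that differ between the stages.

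Between the stages, transcripts of both ligands, the receptor, Lfng and Hes7 rose from E6.75 to E7.5, while those of Hes1 fell. All 6 members passed edgeR's quasi-likelihood test on summed libraries with a Benjamini-Hochberg adjusted p under 0.05, against 38.8% of the 9998 genes tested. The library ranges of 4 members, Dll1, Dll3, Notch1 and Hes7, did not overlap between stages, against 8.24% of the genes tested. At E6.75 Dll1, Notch1, Hes7 and Lfng were too low for the filter on low counts, and they entered the test through E7.5 libraries. Their upward direction was thus set in part by the filter, so that these shares are no measure of support for them. In such sums, fewer cells of a type and less RNA per cell cannot be told apart. Among these mixtures the share of cells with Tbx6, a T-box factor of presomitic mesoderm, was 2.95% of 508 cells at E6.75 and 30.4% of 427 cells at E7.5, and the part of that shift in the stage differences was not tested in the sums.

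Of the ligands, Dll1 had 0, 0.851 and 3.83 CPM in the lowest, median and highest of the 6 E6.75 libraries, and 5.29, 37.1 and 100 CPM over the 11 E7.5 libraries. Every E7.5 library lay above every E6.75 library, and the highest E6.75 values came from 2_13 and 2_14, with 21 and 14 transcripts against 0 to 3 elsewhere. The difference was 4.50 on the log2 scale (SE 0.49, edgeR adjusted p = 5.23e-07), and 5.84 without 2_13 and 2_14. Dll3 had 6.61, 8.34 and 16.3 CPM at E6.75 and 22.4, 58.1 and 112 CPM at E7.5. It was thus already measurable in every E6.75 library, and the ranges stayed apart. Its log2 difference was 2.38 (SE 0.31, edgeR adjusted p = 4.20e-06).

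The receptor Notch1 had 1.71, 3.17 and 5.24 CPM in the lowest, median and highest E6.75 library and 17.8, 28.3 and 38.6 CPM at E7.5. This was the narrowest E7.5 range among the members as a ratio of highest to lowest, and no library of one stage reached the other. The log2 difference was 3.04 (SE 0.24, edgeR adjusted p = 4.83e-09). Lfng had 0, 0.165 and 1.94 CPM at E6.75 and 1.15, 7.07 and 14.5 CPM at E7.5. At E6.75, 3 libraries held no Lfng transcript and 2_13 and 2_14 held 8 and 10, so that the ranges overlapped. The log2 difference was 3.04 (SE 0.59, edgeR adjusted p = 0.00037), and 5.51 without 2_13 and 2_14. The value of 5.51 rests on 1 Lfng transcript at E6.75, in library 1_10.

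The targets went opposite ways. Hes7 had 0.276, 0.365 and 0.875 CPM at E6.75, which was 1 to 3 transcripts per library, and 4.45, 24.8 and 51.2 CPM at E7.5. Its ranges were far apart, with a log2 difference of 5.55 (SE 0.47, edgeR adjusted p = 1.47e-08), although its E6.75 level rests on very few transcripts. Without 2_13 and 2_14 the log2 differences of Dll3, Notch1, Hes7 and Hes1 were 2.83, 3.40, 5.48 and -0.77, and each passed. Hes1 had 78.8, 93.0 and 96.2 CPM at E6.75 and 35.8, 47.8 and 119 CPM at E7.5. E7.5 replicates 9 (119 CPM) and 6 (80.3 CPM) reached the E6.75 range and the other 9 lay below it. Hes1 fell by 0.79 on the log2 scale (SE 0.18, edgeR adjusted p = 0.0014). With every cell thinned to 2000 transcripts the Hes1 difference was -0.61 and did not pass (adjusted p = 0.12).

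**Figure D1:**
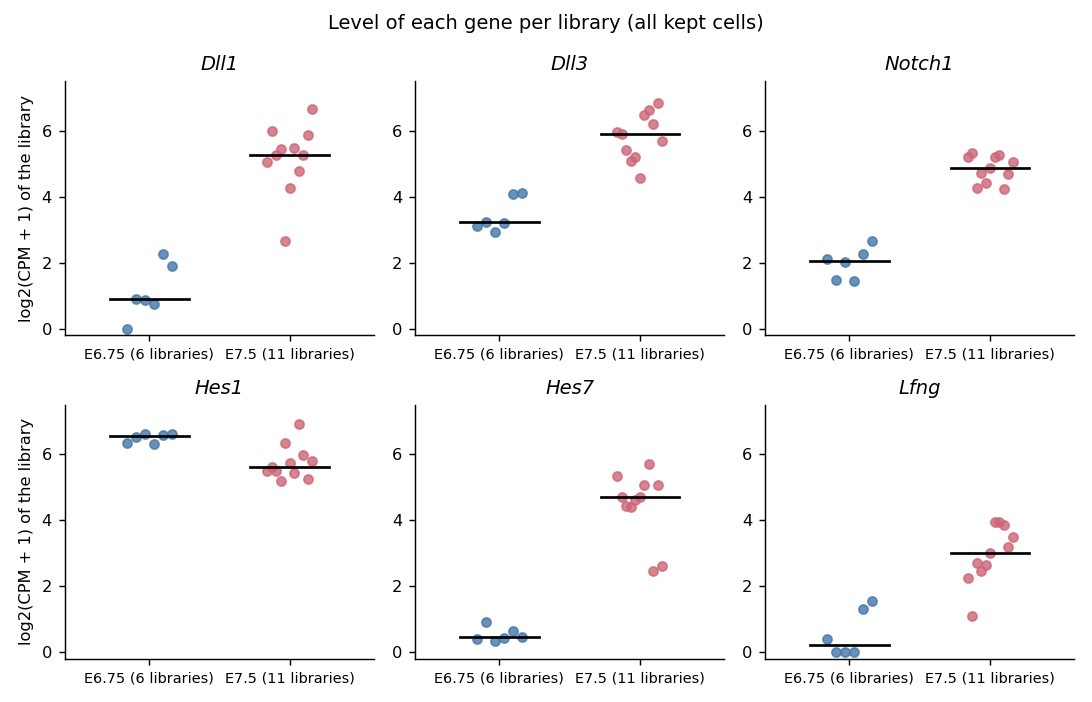
Level of each Notch gene on the log2(CPM + 1) scale, with 1 point per library at E6.75 (6 libraries) and E7.5 (11 libraries) and a bar at the median. Dll1, Dll3, Notch1 and Hes7 are higher in all 11 E7.5 libraries than in any E6.75 library, Lfng overlaps, and Hes1 is lower apart from E7.5 replicates 9 and 6.

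The rest of the pathway was mixed in direction, as were all genes tested. Over all 9998 genes tested between stages, 1997 were higher and 1882 lower at E7.5. Of 53 other Notch pathway genes, 36 could be tested, of which 10 were higher and 7 lower. The 53 include Id1, Id2 and Id3, which are not Notch components. The list median was 0.12 on the log2 scale beside 0.03 over all genes. Among the pathway genes that rose were the ligand Jag1 (log2 difference 1.87, SE 0.37, edgeR adjusted p = 0.00042), the non-canonical ligand Dlk1 (1.78, SE 0.41, adjusted p = 0.0019) and the receptor Notch2 (0.65, SE 0.12). Among those that fell was Rbpj, the DNA-binding partner of the cleaved receptor (-0.31, SE 0.09, adjusted p = 0.0070). Of 25 presomitic and segmentation genes, 19 were tested, 13 were higher and 3 lower, with a median of 2.20.

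The stage differences were also present among cells that all held T, the T-box gene that marks the primitive streak and nascent mesoderm. In 153 T cells at E6.75 and 282 at E7.5, 31.5% of 7595 genes tested passed, and so did each of the 5 members that cleared the filter on low counts. Of these, Dll1, Dll3, Notch1 and Hes7 would not have cleared it on their E6.75 levels alone, which sets their direction in part. The T cells also differed in mixture: Tbx6 was in 10 of them at E6.75 and 117 at E7.5, and Mesp1 in 37 and 120. The part of this shift in the differences was not tested. Dll1 was higher at E7.5 by 4.0 on the log2 scale (SE 0.61, edgeR adjusted p = 3.11e-05). Notch1 was higher by 3.33 (SE 0.35, adjusted p = 3.57e-07) and Hes7 by 5.34 (SE 0.57, adjusted p = 4.83e-07). Dll3 was higher by 2.15 (SE 0.36, adjusted p = 8.24e-05). Hes1 fell by 1.19 (SE 0.22, adjusted p = 0.00031). Without 2_13 and 2_14 the differences of Dll1, Dll3, Notch1, Hes7 and Hes1 were 6.95, 2.75, 4.69, 4.85 and -1.22, and each passed. The E6.75 T cells held 34 Dll1 and 6 Hes7 transcripts in all, and Dll1 was at 0 in 3 of the 6 libraries. Outside 2_13 and 2_14, all kept cells of an E6.75 library held 0 to 3 Dll1 and 1 to 3 Hes7 transcripts. The values of 6.95 and 4.85 thus rest on very few E6.75 transcripts. Lfng did not clear the filter.

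Cells were next divided by whether at least 1 transcript of Tbx6, T, Mesp1 or Foxa2 was found, and the 2 sums of each library were compared with the library as a block. Mesp1 marks early mesoderm leaving the streak, and Foxa2 marks endoderm, node and anterior streak. Cells rich in visceral endoderm markers (35 at E6.75, 2 at E7.5) were left out. Cells in which a gene was found were deeper than the others, for example 38739 against 26206 transcripts at the median for Tbx6 at E7.5, and the part of depth in the differences of level was not tested beyond the thinned fits. Dll1, Hes7 and Lfng were often too sparse for the filter in these sums, and were then compared by an exact two-sided paired permutation test of log2(CPM + 1) over libraries, which was chosen after the data were seen. There were 15 such tests, their p-values are unadjusted, and their differences understate changes at low levels. A sparse member that cleared the filter could do so through the group where it was higher, which sets its direction in part.

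E7.5 cells with Tbx6 held more of both ligands, of the receptor, of Lfng and of Hes7, whereas Hes1 was not higher there. There were 130 cells with Tbx6 and 297 without it over 11 libraries, and 3.68% of 6502 genes tested passed. Of the 3 members in that fit, Dll3 and Notch1 passed and Hes1 did not. Dll1 had 2.19, 7.16 and 19.3 CPM (lowest, median and highest library) in cells without Tbx6 and 4.33, 115 and 490 CPM in cells with it. Replicate 6 was lower and the other 10 of 11 libraries were higher. The 490 CPM of replicate 12 rests on 73 transcripts in 4 cells, 44 of them in 1 cell. The mean paired difference was 3.31 ± 1.81 (SD, n = 11) on the log2(CPM + 1) scale, with p = 0.0020 by the exact permutation test. Dll3 had 4.44, 20.5 and 96.6 CPM without Tbx6 and 36.2, 115 and 247 CPM with it. All 11 libraries moved the same way, and the log2 difference was 2.46 (SE 0.31, edgeR adjusted p = 4.40e-05).

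Notch1 had 1.69, 17.5 and 32.2 CPM without Tbx6 and 17.3, 47.6 and 161 CPM with it. The receptor was higher in 10 of 11 libraries, by 1.72 on the log2 scale (SE 0.29, edgeR adjusted p = 0.0011). Lfng had 0, 3.07 and 9.66 CPM without Tbx6 and 2.37, 12.5 and 47.6 CPM with it. The modifier was also higher in 10 of 11 libraries, with a mean paired difference of 1.97 ± 1.85 (SD, n = 11; exact permutation p = 0.0039). Hes7 had 0, 4.36 and 22.5 CPM without Tbx6 and 13.4, 68.8 and 101 CPM with it. It was higher in 11 of 11 libraries, by 3.40 ± 0.96 (SD, n = 11), and its exact permutation p of 0.00098 is the smallest that 11 pairs can give. Hes1 had 25.1, 51.4 and 187 CPM without Tbx6 and 0, 37.7 and 77.9 CPM with it. It was lower in 9 of 11 libraries, but the difference of -0.63 (SE 0.31) did not pass (edgeR adjusted p = 0.37). With at least 2 Tbx6 transcripts required it was -0.84 and passed (adjusted p = 0.044).

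In the same cells 8 of 13 tested presomitic genes rose, with a list median of 1.27, among them Aldh1a2, which makes retinoic acid (log2 difference 3.07), the protocadherin Pcdh19 (2.54) and the forkhead genes Foxc1 (2.10) and Foxc2 (1.93). Of 24 genes tested from the list of other Notch pathway genes none rose, and 1 fell: Id3, a helix-loop-helix inhibitor (-0.78, SE 0.14, edgeR adjusted p = 0.0019). Id1, Id2 and Id3 were listed with the HES and HEY genes but are not Notch components, so that no other Notch component passed here. Other cell types moved with the Tbx6 division too. Primitive streak markers summed to 363 to 2293 CPM with Tbx6 and 67.7 to 1143 CPM without it, and epiblast markers to 1088 to 2216 CPM and 1069 to 4521 CPM. Their part in the Notch differences was not tested.

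**Figure D2:**
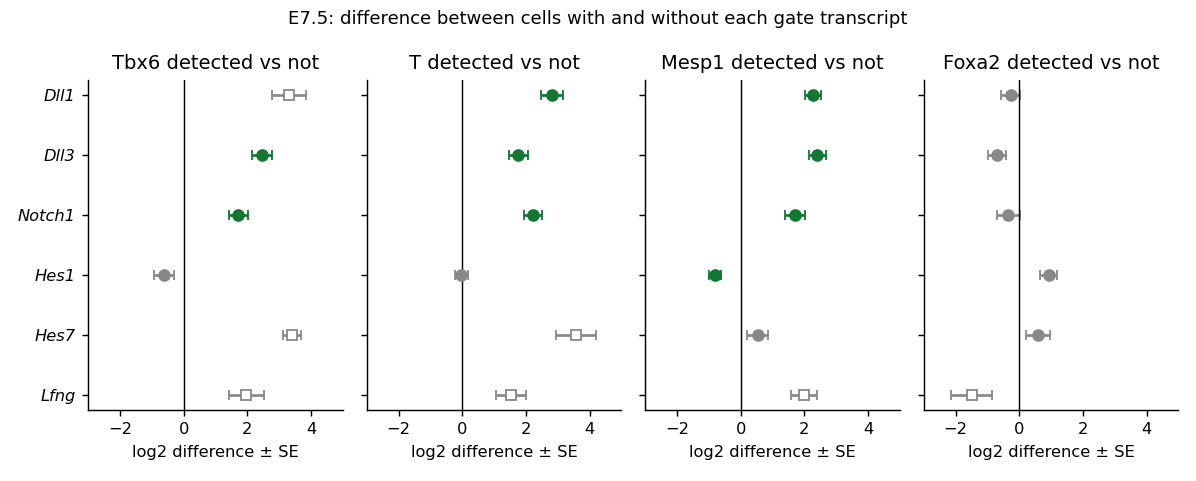
Log2 difference at E7.5 between cells with and without Tbx6, T, Mesp1 or Foxa2 for each Notch gene, with SE; filled circles are edgeR values (green where the adjusted p is under 0.05) and open squares are mean paired differences of log2(CPM + 1) over libraries. Dll3 and Notch1 are green and above 0 for Tbx6, T and Mesp1, Hes1 lies at or below 0 there, and no circle is green for Foxa2.

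Dividing E7.5 cells by T, which 66.0% of them held, gave the same directions for 5 members. Here 282 cells with T were compared with 145 without it, and 2.16% of 6023 genes tested passed. Dll1, Dll3 and Notch1 rose and Hes1 did not pass. Dll1 had 0, 10.6 and 76.8 CPM without T and 5.94, 64.4 and 189 CPM with it. With T, 9 of 11 libraries were higher, by 2.81 on the log2 scale (SE 0.34, edgeR adjusted p = 4.03e-06). Dll3 had 0, 17.4 and 87.1 CPM without T and 26.9, 66.6 and 191 CPM with it, a log2 difference of 1.76 (SE 0.30, edgeR adjusted p = 0.00059) with 9 of 11 libraries higher. Notch1 had 0, 7.11 and 26.7 CPM without T and 20.4, 37.9 and 81.8 CPM with it. All 11 libraries were higher with T, by 2.23 (SE 0.29, edgeR adjusted p = 1.62e-05).

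Hes7 had 0, 0 and 19.9 CPM without T and 5.05, 32.7 and 74.0 CPM with it, and was higher in 10 of 11 libraries (3.56 ± 2.08, SD, n = 11; exact permutation p = 0.0029). Lfng had 0, 3.98 and 10.9 CPM without T and 1.24, 8.95 and 27.3 CPM with it, and was also higher in 10 of 11 (1.53 ± 1.53, SD, n = 11; exact permutation p = 0.0088). Hes1 had 14.2, 44.4 and 384 CPM without T and 27.2, 46.9 and 112 CPM with it. The libraries divided into 5 higher and 6 lower, with a log2 difference of -0.03 (SE 0.21, edgeR adjusted p = 1.0). The smallest sum of cells without T held 13025 transcripts. Among the other pathway genes none of 22 tested passed, and 7 of 12 presomitic genes rose.

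E7.5 cells with Mesp1 likewise held more Dll1, Dll3, Notch1 and Lfng, and less Hes1. In this comparison, of 137 cells against 290, 6.30% of 6139 genes tested passed, and 4 of the 5 members fitted were among them. Dll1 had 0, 17.4 and 77.5 CPM without Mesp1 and 9.60, 70.9 and 255 CPM with it, and was higher in 11 of 11 libraries (log2 difference 2.27, SE 0.26, edgeR adjusted p = 1.36e-06). Dll3 had 5.04, 21.4 and 35.2 CPM without Mesp1 and 48.0, 106 and 247 CPM with it. It was higher in 11 of 11 libraries, and the log2 difference was 2.41 (SE 0.26, edgeR adjusted p = 4.04e-07). Notch1 had 0, 7.13 and 26.9 CPM without Mesp1 and 20.2, 43.4 and 190 CPM with it (log2 difference 1.70, SE 0.31, edgeR adjusted p = 0.00067). Again all 11 libraries were higher.

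Lfng had 0, 3.07 and 6.12 CPM without Mesp1 and 1.89, 15.2 and 49.4 CPM with it, and was higher in 11 of 11 libraries (2.00 ± 1.36, SD, n = 11; exact permutation p = 0.00098). Hes1 had 35.0, 55.8 and 282 CPM without Mesp1 and 6.25, 36.0 and 109 CPM with it. The repressor was lower in 8 of 11 libraries and fell by 0.82 on the log2 scale (SE 0.19, edgeR adjusted p = 0.0085). With at least 2 Mesp1 transcripts required, its adjusted p was 0.073. Hes7 had 0, 21.2 and 176 CPM without Mesp1 and 0, 28.4 and 81.4 CPM with it. The smallest sum of cells without Mesp1, in replicate 9, held 28387 transcripts in 5 cells, so that a high CPM there can rest on few transcripts. Hes7 was higher in 6 of 11 libraries, with a difference of 0.53 (SE 0.33) that did not pass (edgeR adjusted p = 0.45). Whether the Hes7 difference for Tbx6 exceeds that for Mesp1 was not tested, and 68 cells held both genes. From the list of other pathway genes, 22 were tested and only Id2, not a Notch component, passed. It fell (-0.98, SE 0.27, edgeR adjusted p = 0.027), while 10 of 13 presomitic genes rose.

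Cells with Foxa2 at E7.5 showed no member past the threshold. In 9 libraries, 58 cells with Foxa2 and 331 without it were compared, and 2.52% of 6458 genes tested passed. Node and notochord markers summed to 84.9 to 1742 CPM with Foxa2 and 8.12 to 67.1 CPM without it. Hes1 had 32.2, 37.7 and 82.7 CPM without Foxa2 and 25.3, 45.6 and 246 CPM with it. It was higher in 5 of 9 libraries, by 0.92 on the log2 scale (SE 0.27, edgeR adjusted p = 0.061), and leaving out replicate 6, 8 or 11 took the adjusted p to 0.036, 0.030 or 0.044. With at least 2 Foxa2 transcripts required it was 1.26 (adjusted p = 0.0074). The ligands differed by -0.27 (Dll1, SE 0.29, edgeR adjusted p = 0.81) and -0.70 (Dll3, SE 0.27, adjusted p = 0.21). Notch1 differed by -0.35 (SE 0.36, adjusted p = 0.80) and Hes7 by 0.58 (SE 0.38, adjusted p = 0.62). Lfng was lower in 7 of 9 libraries (-1.50 ± 1.90, SD, n = 9), with an exact permutation p of 0.051 where 9 pairs can reach 0.0039. Without replicate 2 (-1.88) or replicate 12 (-1.80) the unadjusted permutation p fell under 0.05.

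When the 4 genes were combined into classes that exclude each other, Dll1, Dll3 and Notch1 had their highest median level in cells with both Tbx6 and Mesp1. The class medians below are over libraries with at least 3 cells of the class and are a description. The classes with Tbx6, Mesp1 or Foxa2 were formed without regard to T. Of the E7.5 cells, 117 of 130 with Tbx6 and 120 of 137 with Mesp1 also held T. A further 27 cells held Foxa2 together with Tbx6 or Mesp1 (4 libraries). For Dll1 the order of the other 6 classes was cells with both Tbx6 and Mesp1 (103 CPM, 9 libraries), Tbx6 without Mesp1 (63.1 CPM, 5 libraries), Mesp1 without Tbx6 (11.3 CPM, 10 libraries), T alone (3.08 CPM, 9 libraries), none of the 4 (1.39 CPM, 10 libraries) and Foxa2 without Tbx6 or Mesp1 (0 CPM, 7 libraries). For Dll3 the medians in that order of classes were 117, 78.9, 39.8, 5.27, 6.22 and 9.50 CPM. For Notch1 they were 56.8, 35.5, 24.5, 12.9, 7.08 and 0 CPM. For these 3 genes the Mesp1 class without Tbx6 thus had a median between those of the Tbx6 classes without Foxa2 and those of the classes with neither gene. The mixed Foxa2 cells had medians of 64.1 CPM for Dll1, 35 CPM for Dll3 and 22.3 CPM for Notch1, so that for Dll1 they ranked just below cells with both Tbx6 and Mesp1.

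Hes7 was placed differently, with its highest median in cells with Tbx6 but no Mesp1. It was 85.8 CPM there, against 59.3 CPM with both and 5.65 CPM with Mesp1 but no Tbx6. Its median was 58.3 CPM in the mixed Foxa2 cells and 0 in cells with T alone, with none of the 4 genes, and with Foxa2 but neither Tbx6 nor Mesp1. Hes1 ran the other way. Its medians were 77.1 CPM in Foxa2 cells without Tbx6 or Mesp1, 53 CPM in the mixed Foxa2 cells and 51.2 CPM with none of the 4. They were 43.5 CPM with T alone and 39.8 CPM with Mesp1 but no Tbx6. With Tbx6 they were 26.2 CPM without Mesp1 and 10.7 CPM with it. Lfng had medians of 8.11 CPM with both, 7.89 CPM with Tbx6 but no Mesp1 and 5.26 CPM with Mesp1 but no Tbx6. Its medians were 1.77 CPM in the mixed Foxa2 cells and 1.39 CPM with none. In the 33 cells with Foxa2 but neither Tbx6 nor Mesp1 no Lfng transcript was found.

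**Figure D3:**
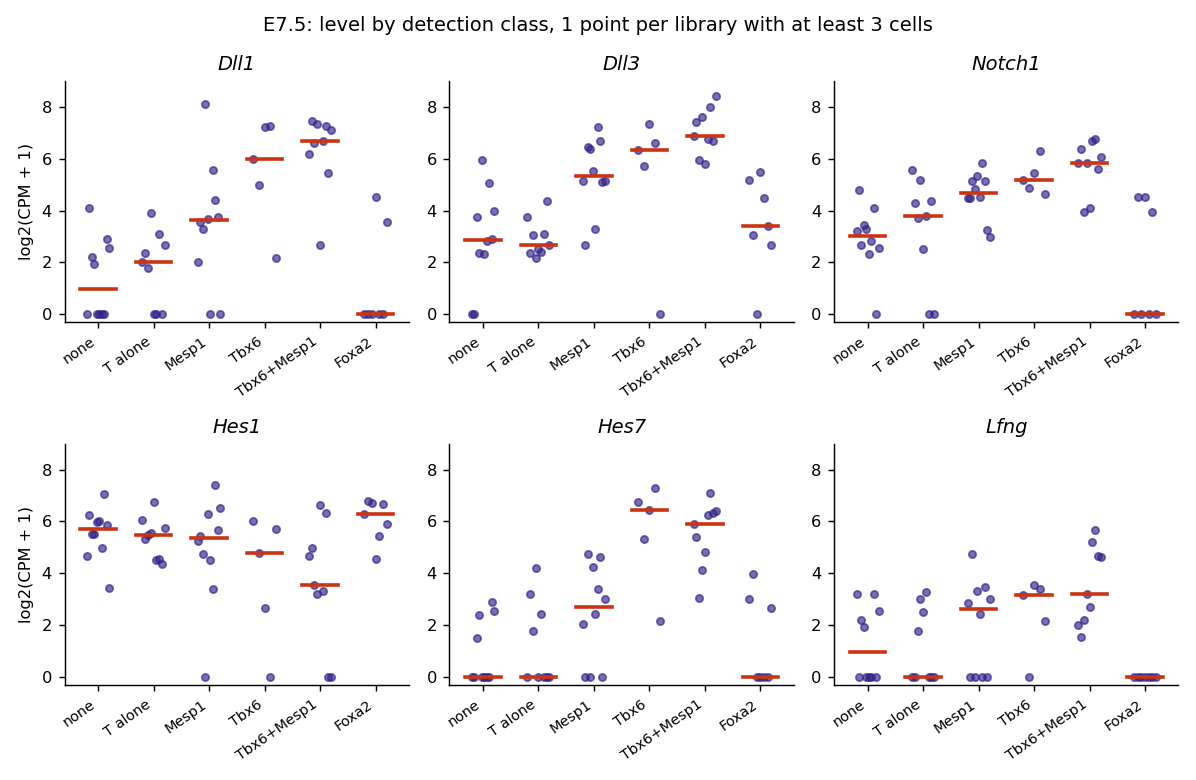
Level of each Notch gene on the log2(CPM + 1) scale in 6 E7.5 cell classes (the mixed Foxa2 cells are not drawn), with 1 point per library and a bar at the median. Dll1, Dll3 and Notch1 have their highest medians in cells with both Tbx6 and Mesp1, and Hes7 in cells with Tbx6 but neither Mesp1 nor Foxa2. Hes1 has its highest median in cells with Foxa2 but neither Tbx6 nor Mesp1. Apart from T alone and none, the classes disregard T.

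The classes themselves were not tested. A related comparison divided all Tbx6 cells by Mesp1, and did not leave out cells with Foxa2, which 24 of the 130 Tbx6 cells held. Its levels thus differ from those of the classes: the Hes1 median without Mesp1 was 69.8 CPM here and 26.2 CPM in the class. In the 5 libraries with enough of each, 48 Tbx6 cells with Mesp1 were compared with 51 without it, and 1.25% of 5356 genes tested passed. None of the 5 members fitted passed after adjustment over all genes tested. The log2 differences were 1.11 for Dll1 (SE 0.44, edgeR adjusted p = 0.34), 0.98 for Dll3 (SE 0.41, adjusted p = 0.37) and 0.69 for Notch1 (SE 0.39, adjusted p = 0.55). Without replicate 3 the Dll3 difference was 1.53 and passed (adjusted p = 0.042). Hes1 was lower with Mesp1 in 4 of 5 libraries (-1.51, SE 0.38, edgeR adjusted p = 0.070), and Hes7 also in 4 of 5 (-0.63, SE 0.42, adjusted p = 0.64). With at least 2 transcripts required for detection, Hes7 fell by 1.33 (adjusted p = 0.041). With no filter on low counts Dll1 (1.15, adjusted p = 0.00011), Dll3 (1.02, adjusted p = 0.00063) and Hes1 (-1.47, adjusted p = 0.0015) passed, in a fit whose SEs for sparse genes were smaller. Of 13 presomitic genes 5 rose in the same comparison.

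At E6.75 the few cells with Tbx6 already held more of both ligands. The test rests on the libraries 2_13 and 2_14 alone, with 11 cells against 167, and 4.10% of 10169 genes tested passed. Dll1 had 30.6 and 29 CPM with Tbx6 against 2.22 and 0.220 CPM without it (log2 difference 4.80, SE 0.89, edgeR adjusted p = 0.0019). These levels rest on 22 transcripts with Tbx6 and 12 without it, and 6 of the 13 in Tbx6 cells of 2_14 lay in 1 cell. Dll1 cleared the filter through the cells with Tbx6, which sets its direction in part. Dll3 had 50.9 and 105 CPM against 14.7 and 8.15 CPM (2.86, SE 0.43, adjusted p = 0.00019). The 105 CPM of 2_14 rests on 47 transcripts in 7 cells, 30 of them in 1 cell. Hes1 had 139 and 236 CPM against 88.6 and 78.9 CPM and also rose (1.21, SE 0.24, adjusted p = 0.0029), which is the direction opposite to its E7.5 value of -0.63. The difference between the stages in this Hes1 response was not tested, and thinning cells to 10000 transcripts took the E6.75 adjusted p to 0.18. Notch1 (1.45, SE 0.91, adjusted p = 0.55) and Lfng (3.60, SE 1.19, adjusted p = 0.11) did not pass. Hes7 was not found in any of the 15 E6.75 cells with Tbx6, while 56.2% of E7.5 Tbx6 cells held it.

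Mesoderm markers were also counted in these early Tbx6 cells. Markers of extraembryonic and lateral mesoderm summed to between 496 and 735 CPM with Tbx6 and between 27.8 and 70.5 CPM without it. Paraxial mesoderm markers summed to between 37.3 and 44.6 CPM against 7.27 to 9.67 CPM, but that list holds Tbx6 itself, which raises its sum by construction, and Msgn1 and Meox1 were at 0 in the Tbx6 cells. The part of these cell types in the Notch differences was not tested. Of the other pathway genes, 39 were tested. Jag1 (3.02) and Id1 (1.28) rose, and Notch3 (-2.07), Dtx1 (-2.60) and Id2 (-2.06) fell, of which Id1 and Id2 are not Notch components.

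At E6.75, cells with T held more Hes1 than cells without it, while Dll3, the other member fitted, did not pass. There were 153 against 355 cells in 6 libraries, and 3.13% of 9757 genes tested passed. Hes1 had 55.5, 67.9 and 95.7 CPM without T and 79.5, 120 and 160 CPM with it. It was higher in 4 of 6 libraries, by 0.76 on the log2 scale (SE 0.15, edgeR adjusted p = 0.0028), but with DESeq2 the adjusted p was 0.18, and without 2_13 and 2_14 the difference was 0.59 with an edgeR adjusted p of 0.14. Dll3 had 5.64, 8.49 and 11.2 CPM without T and 5.05, 15.4 and 24.2 CPM with it. It was higher in 5 of 6 libraries by 0.88 (SE 0.26, adjusted p = 0.064), and without library 2_9 by 1.11 (adjusted p = 0.0075). Dll1, Notch1, Hes7 and Lfng were sparse in these sums. Their mean paired differences on the log2(CPM + 1) scale were 0.63, -0.50, 0.40 and 0.24, higher with T in 3, 2, 4 and 2 of 6 libraries, and the exact permutation p-values were 0.38, 0.31, 0.28 and 0.50, where 6 pairs can reach 0.031.

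The Mesp1 and Foxa2 divisions at E6.75 gave no call among the members fitted, which were Dll3, Notch1 and Hes1 for Mesp1 and Dll3 and Hes1 for Foxa2. For Mesp1, 50 cells and 208 cells in 3 libraries were compared and 1.01% of 9801 genes tested passed. Dll3 had 4.06, 28 and 57.3 CPM with Mesp1 and 7.85, 7.87 and 11.8 CPM without it, a difference of 1.67 (SE 0.42, edgeR adjusted p = 0.097) that became 2.06 without library 2_9 (adjusted p = 0.0039). Notch1 differed by 1.01 (SE 0.55, adjusted p = 0.68) and Hes1 by 0.33 (SE 0.16, adjusted p = 0.57). Dll1, Hes7 and Lfng did not clear the filter. Dll1 had 0, 10.6 and 15.4 CPM with Mesp1 in libraries 2_9, 2_13 and 2_14, and 1.07, 0.822 and 0 CPM without it, so that it was higher in 2 of 3 libraries. In a fit with no filter on low counts Dll1 (3.80, adjusted p = 0.00019) and Dll3 (1.64, adjusted p = 5.59e-06) passed. For Foxa2, 106 and 402 cells in 6 libraries were compared and 0.464% of 9705 genes tested passed. Hes1 had 61.5, 82.3 and 91.4 CPM without Foxa2 and 71.9, 106 and 137 CPM with it, higher in 5 of 6 libraries by 0.43 (SE 0.12, adjusted p = 0.15). Dll3 differed by 0.42 (SE 0.31, adjusted p = 0.88). The mean paired differences of Dll1, Notch1, Hes7 and Lfng with Foxa2 were -0.69, -0.18, 0.26 and -0.37, higher in 1, 2, 3 and 0 of 6 libraries, with exact permutation p-values of 0.25, 0.75, 0.62 and 0.25.

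Whether the difference between cells with and without T differed between the stages was tested by an interaction term, and 0.387% of 8262 genes tested passed. None of the 5 members fitted did. The Notch1 difference was larger at E7.5 by 2.23 (SE 0.55, edgeR adjusted p = 0.065), and leaving out E7.5 replicate 2 took it to 2.47 (adjusted p = 0.031). For Hes1, higher with T at E6.75 and level at E7.5, the interaction was -0.77 (SE 0.28, adjusted p = 0.50), with an unadjusted p of 0.011 and an interval of -1.33 to -0.21, so that it did not pass adjustment over all genes. Dll3 (0.89, SE 0.46), Dll1 (0.70, SE 1.47) and Hes7 (1.72, SE 1.64) had wide errors, which leaves room for differences in either direction for Dll1 and Hes7. From the list of other pathway genes, 32 were tested and only Id1 passed, a target of BMP signalling and not a Notch component. Its difference was smaller at E7.5 by a log2 value of -1.47 (SE 0.28, edgeR adjusted p = 0.0060).

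**Figure D4:**
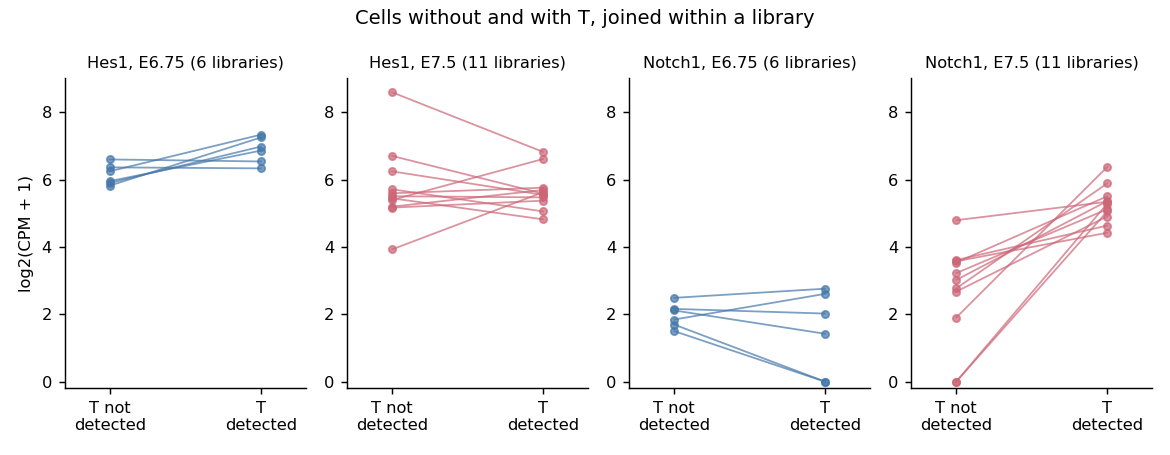
Hes1 and Notch1 on the log2(CPM + 1) scale in cells without and with T at E6.75 (6 libraries) and E7.5 (11 libraries), with each line joining the sums of one library. Notch1 is higher with T in all 11 E7.5 libraries and in 2 of 6 E6.75 libraries, and Hes1 in 5 of 11 E7.5 libraries and 4 of 6 at E6.75.

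In single cells, the share with at least 1 transcript followed the summed levels. Between E6.75 (median depth 39298 transcripts) and E7.5 (31173), the share of cells with Dll1 was 4.24% and 25.2%, with Dll3 26.9% and 40.3%, with Notch1 11% and 37.1%, with Lfng 2.21% and 12.8%, with Hes7 2.03% and 23.8%, and with Hes1 78.1% and 53.6%. Cells thinned to 2000 transcripts gave 17.3% and 9.79% for Hes1, and 0.184% and 5.83% for Dll1. In the 35 visceral endoderm marker-rich cells of E6.75 (median depth 24728) Dll1 was found in 5.71%, Dll3 in 2.86%, Notch1 in 8.57% and Hes1 in 74.3%. The E6.75 share of Dll1 was thus not above that in these cells, while that of Dll3 was. Hes7 and Lfng were in 0 of 35 such cells, which allows a share of up to 8.57%, counting error only.

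Within E7.5 Tbx6 cells the members were unevenly spread from cell to cell. Dll1 was found in 75 of 130 cells, with at least 5 transcripts in 41 and at most 44. Dll3 was found in 96 cells, with at least 5 transcripts in 45 and at most 40. Notch1 was found in 83 cells and reached 13 transcripts, Hes7 in 73 cells and reached 21, and Lfng in 32 cells and never above 4. Hes1 was found in 65 cells, which is 50.0% against 55.2% of cells without Tbx6. After thinning to 10000 transcripts, which sets the depth equal, Hes1 was in 23.8% of Tbx6 cells and 38.4% of the others, Dll1 in 43.4% and 4.17%, and Hes7 in 36.9% and 4.63%. All 6 members were found together in 8 E7.5 cells (1.86%) and in no E6.75 cell, and none of the 6 in 76 cells (17.7%) and 103 cells (19.0%), which were shallow cells (median depths 6228 and 9843).

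Members were found in the same E7.5 cells to different degrees, given here as the number of cells with both against the number expected from independence within libraries, over 427 cells. These cells differ in depth, and thinning to 10000 transcripts, which sets it equal, leaves 338 of them. Dll1 and Lfng were together in 33 cells against 13 expected, a ratio of 2.53, and Hes7 and Lfng in 28 against 12.5, a ratio of 2.25. Dll1 and Hes7 were together in 55 cells against 27.3 (ratio 2.02), and Dll1 and Dll3 in 83 against 45.4 (ratio 1.83). After thinning these ratios were 3.42, 4.24, 2.30 and 2.64. Those with Lfng then rest on few cells: 6 against 1.75 expected with Dll1, and 6 against 1.42 with Hes7. Hes1 stood apart from Dll1: both were found in 52 cells against 58.3 expected (ratio 0.891), and after thinning in 10 against 21 (ratio 0.477). Among Tbx6 cells only, the ratio was 1.38 for Dll1 with Lfng and 1.22 for Hes7 with Lfng. It was 1.18 for Dll1 with Hes7 and 1.20 for Dll1 with Dll3. After thinning these ratios were 1.34, 1.98, 1.22 and 1.37, so that each lay nearer 1 than over all cells in both settings. Of these, Dll1 with Lfng rests on 6 cells against 4.47 expected, and Hes7 with Lfng on 5 against 2.52. The ratio of Dll1 with Hes1 in Tbx6 cells was 0.859 (0.455 after thinning). Over all thinned cells the ratios of Hes1 with Dll3 (0.778), Hes7 (0.769) and Notch1 (0.820) were also below 1, and that with Lfng (1.29) was above it. Among thinned Tbx6 cells they were 1.01, 1.09, 0.855 and 1.26, so that those with Dll3 and Hes7 were not below 1 there. The thinned ratios of Hes1 with Lfng rest on 5 cells against 3.89 expected over all cells, and on 3 against 2.37 among Tbx6 cells.

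**Figure D5:**
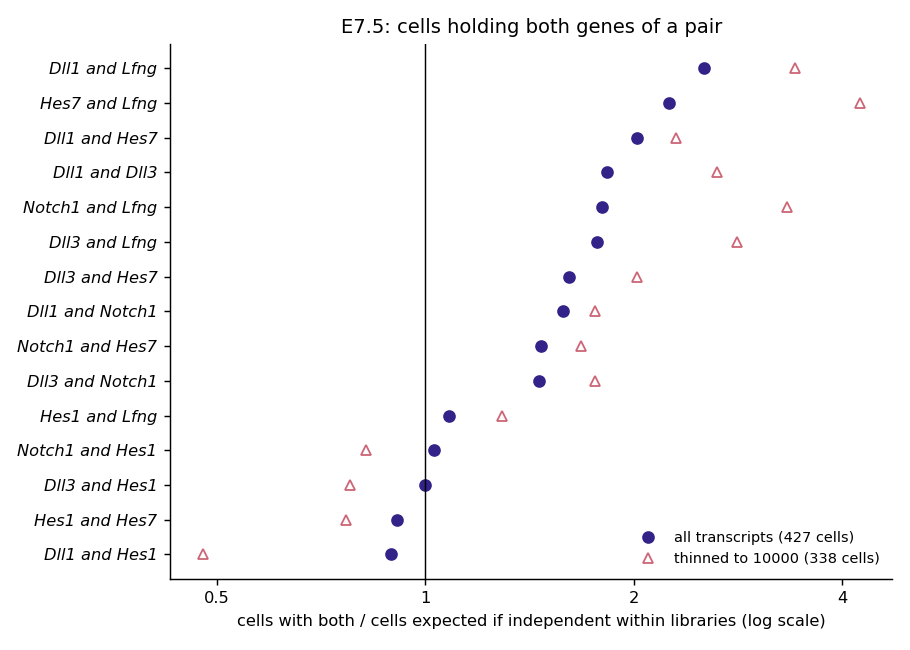
Ratio (log axis) of observed to expected E7.5 cells holding both members of a pair, with all transcripts (circles) and after thinning to 10000 (triangles). Pairs among Dll1, Dll3, Hes7 and Lfng lie above 1, and Dll1 with Hes1 lies below 1 in both settings. After thinning, pairs with Lfng rest on 5 to 7 cells each.

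Over the 54 class sums of the 11 E7.5 libraries, the genes whose levels on the log2(CPM + 1) scale ran most like each member were ranked among 6569 genes by Pearson's r, a description across sums that share libraries and cell classes. For Dll1 these were Aldh1a2 (r = 0.79), Hoxb1 (0.76) and Laptm4b (0.70), and for Dll3 Greb1 (0.77), Ifitm1 (0.76) and Laptm4b (0.74). Notch1 ran most like Prtg (0.77), Pdlim4 (0.75) and Pcdh19 (0.72). Hes7 ran most like Mixl1 (0.72), a homeobox gene of the streak, Aldh1a2 (0.70) and Dll1 (0.69), and Lfng most like Mixl1 (0.65), Nrp2 (0.64) and Notch1 (0.64). Hes1 had lower values throughout, with Kif21a (0.64), Dcun1d1 (0.61) and the epiblast factor Nanog (0.61). Between members, Dll1 ran with Dll3 (0.70) and Hes7 (0.69), while Hes1 had r = -0.46 with Dll1, -0.41 with Dll3 and -0.36 with Notch1.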

How the data were processed

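Single-cell 3′ libraries were made by CEL-Seq2 (E6.75) and mCEL-Seq2 (E7.5), per the labels' protocols. The authors deposited expected counts: each value equals 4096·ln(4096/(4096 − k)) for a whole number k, a correction for unique molecular identifiers used more than once, with a largest difference of 4.73e-11. The submitters' processing notes list bcl2fastq 2.17.1.14 and BWA 0.6.2-r126, and the build, annotation and strand used in counting are not given in the sources used here. Of 23093 features, 74 spike-ins and 22 mitochondrial genes were left out of library sizes and tests. Of 192 barcode columns per file, the 96 used were taken.

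The expected counts were rounded and summed per library, or per library and gate for libraries with at least 3 cells in each gate (10 cells for the stage test), and CPM are of these sums. edgeR 4.0.16 (TMM, filterByExpr, quasi-likelihood F test) in R 4.3.3 was fitted across all genes with Benjamini-Hochberg adjustment over all genes tested and a threshold of 0.05. The fit of gates had the library as a block, and each SE is the log2 difference divided by the square root of F. Cells with at least 40 visceral endoderm or 20 extraembryonic ectoderm marker transcripts per 10000 were left out of gates, classes and co-detection. 23 E6.75 cells and 1 E7.5 cell lay within a factor 2 of the first limit. Doublets were not called. The scripts were tested on simulated data. No pair of libraries of one stage agreed within sampling noise (chi-square per degree of freedom at least 3.46 at E6.75 and 2.11 at E7.5).

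The members and the gene and marker lists were chosen with earlier results of these data known. Named genes are the 6 members, some of the pathway and presomitic genes that passed a test, and for each member the 3 most alike genes with a mean of at least 20 CPM. Alternatives were DESeq2 1.42.0, no filter on low counts, other depth limits, thinning of cells, stricter gates, marker-rich cells kept, and each library left out. Added after the data were seen were thinning to 10000, leaving out 2_13 and 2_14, and the paired permutation test (scipy 1.17.1).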

Additional observations from a re-analysis of the deposited data

Results flagged for a closer look

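In 54 groups of 4 to 10 library values of the members, 6 had a highest sample that stood far from the rest by Dixon's criterion, where chance gives about 1 in 20. In E7.5 cells with Foxa2, replicate 3 was highest for Hes1 (246 CPM, the next 96.1) and for Hes7 (123 CPM, the next 47.0). In E7.5 cells without Foxa2, replicate 6 was highest for Hes1 (82.7 CPM, the next 43.6) and replicate 12 for Dll1 (120 CPM, the next 59.6). Lfng was highest in library 2_14 among E6.75 cells without T (1.26 CPM, the next 0.434) and in replicate 7 among E7.5 cells with Tbx6 and Mesp1 (35.7 CPM, the next 8.11).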

How the results depend on the processing

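Of 860 edgeR values of the members under alternative settings, which leave out the paired tests, 818 kept their direction and their side of the threshold, 27 passed where the reported fit did not, 6 no longer passed and 9 changed sign. These 9 were all for Hes1 in E7.5 cells with and without T, reported as -0.03: it was 0.01 with no filter on low counts, 0.04 with a higher limit on depth per cell, 0.04 with marker-rich cells kept, 0.01 with at least 5 cells per gate, and -0.18 to 0.09 with one library left out. The other changed calls stand beside their values in the report or came with no filter on low counts, a higher limit on depth, thinning, marker-rich cells kept or stricter gates.

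The number of genes called moved more than that of members, and the cause was not tested beyond the fewer transcripts of thinned cells. Thinning to 2000 transcripts took the stage count from 3879 to 598 (1841 at 10000) and that among T cells from 2395 to 187 (856 at 10000). At E7.5 it took the counts for Tbx6 from 239 to 18 (74 at 10000), T from 130 to 3 (21), Mesp1 from 387 to 9 (73), Foxa2 from 163 to 10 (33) and Mesp1 within Tbx6 cells from 67 to 3 (12). At E6.75 it took Tbx6 from 417 to 9 (72), T from 305 to 15 (75), Mesp1 from 99 to 3 (40) and Foxa2 from 45 to 4 (18), and the interaction from 32 to 1 (7). With no filter on low counts the counts were 599, 362, 926 and 674 for Tbx6, T, Mesp1 and Foxa2 at E7.5, 500, 251 and 136 for T, Mesp1 and Foxa2 at E6.75, 298 within Tbx6 cells and 117 for the interaction. DESeq2 called 166, 158, 37 and 21 genes for Tbx6, T, Mesp1 and Foxa2 at E6.75. At least 5 cells per gate gave 99 for E7.5 Foxa2 and 35 within Tbx6 cells, at least 2 transcripts gave 127 within Tbx6 cells, and keeping marker-rich cells gave 442 for E6.75 Foxa2. Without 2_13 and 2_14 the counts were 111 for T and 17 for Foxa2 at E6.75 and 12 for the interaction.

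With one library left out, the count ranged from 85 (without replicate 4) to 149 for E7.5 T, from 90 (replicate 7; 99 without replicate 1 or 2) to 178 for E7.5 Foxa2, and from 12 (replicate 2) to 83 within Tbx6 cells. It ranged from 176 (2_14; 187 without 2_13) to 339 for E6.75 T, from 39 (2_13) to 197 (2_9) for E6.75 Mesp1, from 20 (2_13; 23 without 2_14) to 54 for E6.75 Foxa2, and from 20 (2_13; 21 without 2_14) to 37 for the interaction. The E6.75 Tbx6 comparison has 2 libraries, so that leaving one out, requiring 2 transcripts or 5 cells, or leaving out 2_13 and 2_14 gave no fit, and the last could not be run for E6.75 Mesp1 either.

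Depth limits the sparse members: Dll1, Hes7 and Lfng rest on 0 to 21 transcripts per E6.75 library, and a difference that did not pass there may be too small for this depth. In the paired tests, leaving out one library took Notch1 in E6.75 Foxa2 cells from -0.59 to 0.11 (without 2_12; 0.00 without 2_14) and Hes7 from -0.08 (without 1_10) to 0.50, so that both changed sign, and Lfng in E7.5 Foxa2 cells passed without replicate 2 (-1.88) or 12 (-1.80). Gates were compared within libraries. Between stages no pairing could be made, since the E6.75 and E7.5 libraries share no replicate number.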
